A study of Sus scrofa with 35 samples.

Results

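The genes described here are 9 surface and lineage genes that are widely used to recognise blood monocytes and the macrophages that arise from them: CSF1R, CD14, CD163, MSR1, MRC1, FCGR1A, FCER1G, LYZ and VCAN. Their members were all probes of the array, control spots left out, whose gene name equalled 1 of these symbols when written in capitals, a rule that uses no measured value. The array carried 39175 distinct names in its field for the gene, and the 9 genes had 25 probes among 60305, and 23 of them among the 39072 probes of the authors' table of log2 values. CD163 had 6 probes, LYZ 4, CD14 3, CSF1R 1, and FCER1G, FCGR1A and MRC1 2 each. VCAN had 3 probes and MSR1 had 2, each with 1 probe outside the table. The MSR1 probe outside the table (O11993) was well above background on 0 of 35 arrays and the VCAN probe outside it (O12236) on 1.

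Whole blood RNA was measured with 1 one-colour array per pig in 35 castrated male pigs. The pigs were Creole (CR), Large White (LW) or F1 pigs, which the study bred by crossing CR with LW. Pigs in thermoneutral (TN) conditions, at 24 °C, were set against pigs under heat stress (HS), which the sample labels give as 30 °C and the protocol text as 32 °C for 5 days. The groups held 5 CR TN, 6 CR HS, 6 F1 TN, 6 F1 HS, 6 LW TN and 6 LW HS pigs. According to the methods of the study, TN pigs were slaughtered before the temperature was raised, so climate and the period of slaughter cannot be told apart. No label gives the age, the pen or the litter of a pig.

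Monocytes circulate in blood for a short time and enter tissues, where many become macrophages. They recognise microbes and damaged cells through pattern recognition and scavenger receptors, bind antibody-coated particles through Fc receptors, and depend on signals through CSF1R for survival. None of the 9 genes belongs to monocytes alone: LYZ and FCER1G are also expressed by neutrophils and other myeloid cells, and MRC1, MSR1 and CD163 are best known from tissue macrophages. Whole blood averages all of its cells, so more or fewer monocytes and more or less RNA per monocyte cannot be told apart in any value given here.

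All probes had 60 bases. The sequences that matter most for reading the values are those that tell which probes of a gene are separate measurements, and they are written 5′ to 3′ as in the deposited scanner files. CSF1R was read by a single probe.

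CSF1R O6058: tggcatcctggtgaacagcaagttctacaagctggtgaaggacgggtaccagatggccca

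The 3 CD14 probes had no stretch of more than 5 bases in common, so they did not read the same bases.

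CD14 A_72_P050971: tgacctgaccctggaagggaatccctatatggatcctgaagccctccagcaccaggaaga
CD14 O10660: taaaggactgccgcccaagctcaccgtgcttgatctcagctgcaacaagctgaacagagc
CD14 A_72_P756625: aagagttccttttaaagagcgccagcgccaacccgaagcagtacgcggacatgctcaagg

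The LYZ probes A_72_P737919 and A_72_P721793 shared a run of 45 bases and are not fully separate measurements. Of the 6 CD163 probes, 2 carried the same 60 bases, as did both FCER1G probes, and these pairs with the same 60 bases are repeat measurements of 1 target rather than 2 targets.

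CD163 A_72_P018171 and A_72_P624895: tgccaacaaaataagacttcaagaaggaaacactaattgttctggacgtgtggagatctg

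The 2 FCGR1A probes lay next to each other. The last 10 bases of the one are the first 10 of the other, shown in capitals.

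FCGR1A A_72_P302844: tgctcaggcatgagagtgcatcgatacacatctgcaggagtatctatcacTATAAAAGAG
FCGR1A O9759: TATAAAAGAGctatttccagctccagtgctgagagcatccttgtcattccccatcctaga

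The probes of MRC1 and of VCAN had no stretch of more than 6 bases in common within a gene, and are shown by their bases 1 to 30. Whether the MRC1 probes lie on the same transcript could not be checked, since no transcript reference was used here.

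MRC1 A_72_P442529: tgatatcagaggcatacagatgataaggcc
MRC1 O1108: gaatattgcagatgtgtcctttgtcctgtt
VCAN A_72_P322278: caaccaggtctcctttttaatggctttcgt
VCAN A_72_P409933: gggttgctgtgctcccaaaacattttaaag

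Each gene is described by 1 lead probe, the probe well above background on the most arrays and, among equals, the one with the higher mean. The lead probes of CD14, CD163, CSF1R, FCER1G, LYZ, MRC1 and VCAN were well above background on all 35 arrays. That of FCGR1A (O9759) was above it on 34 arrays and that of MSR1 (A_72_P114041) on 17, so the MSR1 values lie close to the limit of the assay. Values are the authors' log2 intensities after quantile normalization between arrays. They compare the same probe between pigs, and not one probe with another.

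Over the whole series, 55.2% to 68.0% of the probes of an array were well above background. The F1 TN arrays were the dimmest, with a 75th percentile of the processed intensity of 149.9 ± 28.3 (SD, n = 6), whereas the F1 HS arrays reached 238 ± 35.6 (n = 6). In F1 TN 60.0% of the probes were above background and in F1 HS 65.1%. A list of 18 red cell genes, of which 14 were in the table, had a mean log2 value of 10.24 ± 0.65 in F1 TN and 9.31 ± 0.58 in F1 HS pigs, 9.82 ± 0.55 and 9.38 ± 0.61 in CR pigs, and 9.98 ± 0.28 and 9.70 ± 0.34 in LW pigs. In CR pigs the 75th percentile was 227.8 ± 66.5 in TN and 224.7 ± 54.6 in HS, and in LW pigs 203.7 ± 30.9 and 202.1 ± 29.6. Array brightness thus moved with climate in F1 pigs, whereas the mean of the red cell list was lower in HS in each breed. Both were measured in the same samples as the results that follow.

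The first question of the design was which genes changed with HS, with breed taken into account. CSF1R and VCAN were up-regulated, with both VCAN probes past the threshold, and 1 of the 2 FCGR1A probes passed from values near background. The lead MRC1 probe was down-regulated. CD14, CD163, FCER1G, LYZ and MSR1 did not pass the test at any of their probes. In all, 5 of the 23 probes passed an adjusted p of 0.05 by limma (21.7%), 4 higher and 1 lower in HS, whereas 34.8% of all 39072 probes passed, 20.1% of them higher and 14.7% lower. The share of members called was thus below that of the whole table. Without the F1 pigs, and with the mean of the red cell list as a covariate, 0 of the 23 probes passed by limma. The median log2 difference was 0.12 over the 23 probes and 0.06 over all probes, and 60.9% of the members had a positive difference against 59.8% of all probes.

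**Figure D1:**
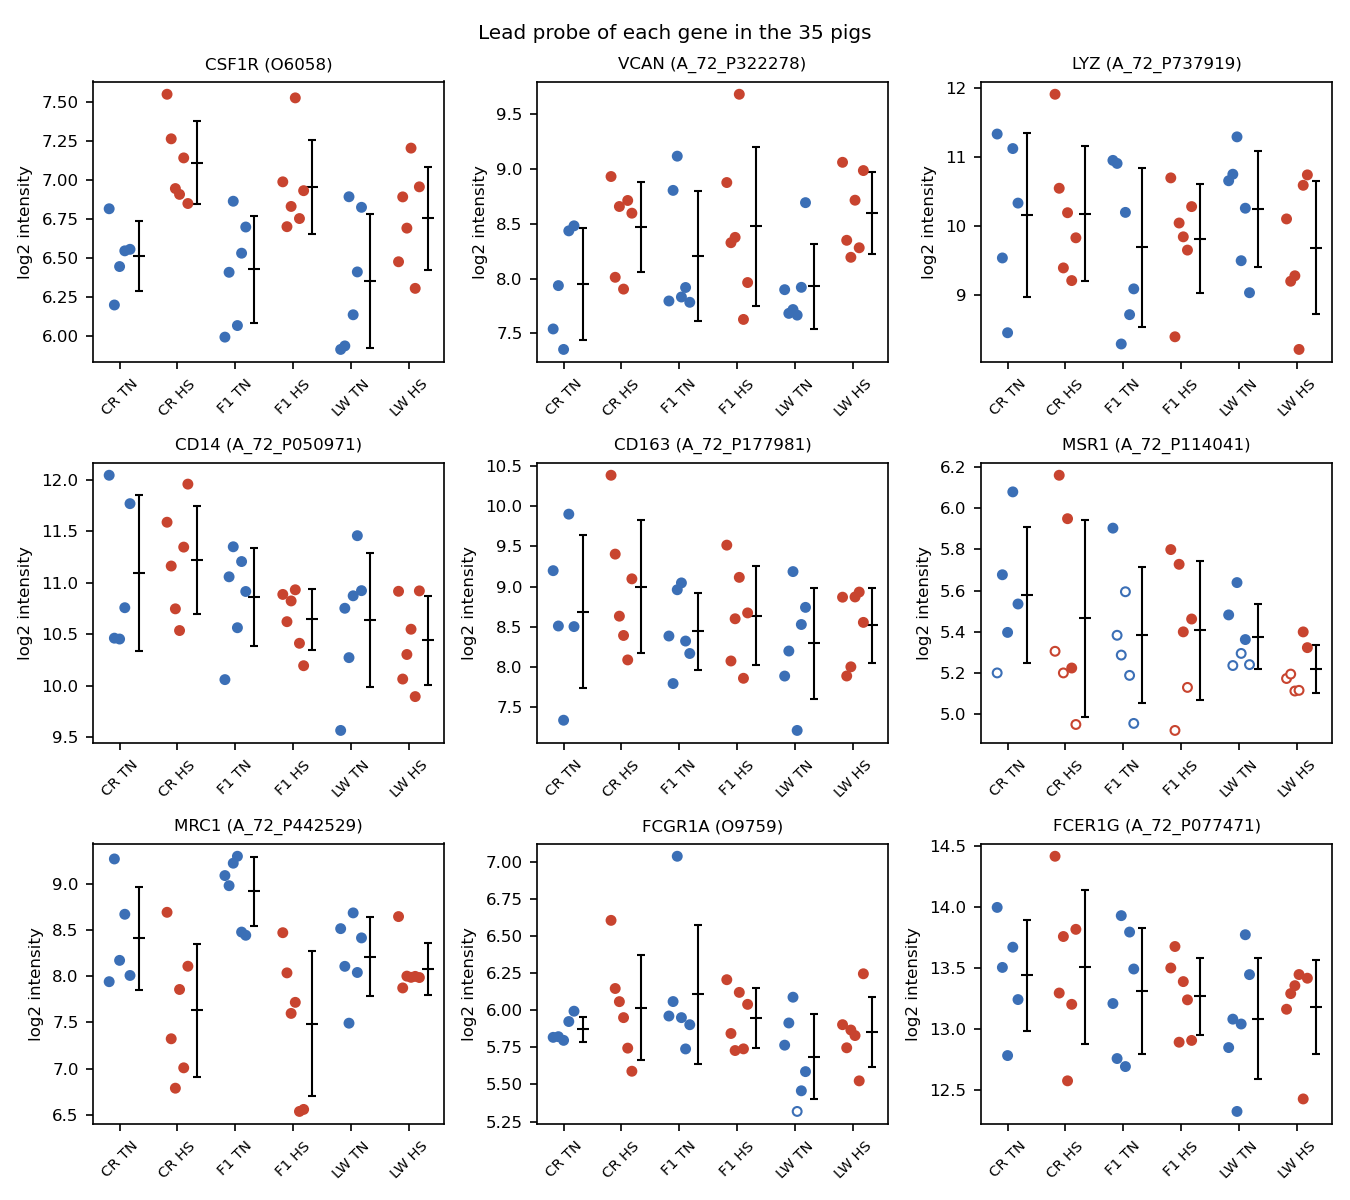
Log2 intensity (y axis, its range set for each gene) of the lead probe of each of the 9 genes in each of the 35 pigs, by group (x axis; TN in blue, HS in red). Filled points are arrays on which the probe was well above background, open points are arrays on which it was not, and black bars give the group mean ± SD. CSF1R sits higher in the HS group of each breed, and MSR1 is above background on 17 arrays.

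CSF1R encodes the receptor of colony stimulating factor 1, the growth factor on which monocytes and macrophages depend. In the 5 CR TN pigs its values were 6.81, 6.20, 6.44, 6.54 and 6.55, and in the 6 CR HS pigs they ran from 6.85 over a median of 7.04 to 7.55. These CR groups did not overlap. In F1 pigs the lowest, median and highest values were 5.99, 6.47 and 6.86 in TN and 6.70, 6.88 and 7.53 in HS. In LW pigs they were 5.91, 6.27 and 6.89 in TN and 6.30, 6.79 and 7.20 in HS. The F1 and LW groups overlapped in part, and 17 of 18 HS pigs lay above the TN mean of their own breed. The group means placed the 3 HS groups first (CR 7.11, F1 6.95, LW 6.75) and the 3 TN groups after them (CR 6.51, F1 6.43, LW 6.35), and neighbours in this order were closer together than the larger of their SDs. The difference of HS minus TN was 0.51 ± 0.11 log2 (SE), a 1.42-fold rise (adjusted p = 0.00159, limma). The arrays came from 5 slides. With slide as a block the difference was 0.51 ± 0.11 (adjusted p = 0.00199), and within slides it ran from 0.06 to 0.74, positive on all 5.

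VCAN encodes versican, a large matrix proteoglycan that circulating monocytes express strongly. At the lead probe (A_72_P322278) the CR TN pigs had values of 7.54, 7.94, 7.35, 8.44 and 8.48, and the CR HS pigs ran from 7.90 over a median of 8.63 to 8.93. The F1 groups ran from 7.78 over 7.88 to 9.12 in TN and from 7.63 over 8.35 to 9.68 in HS. The LW groups ran from 7.67 over 7.81 to 8.69 in TN and from 8.19 over 8.53 to 9.06 in HS. TN and HS pigs overlapped in every breed, most widely in F1 pigs, and 15 of 18 HS pigs were above the TN mean of their breed. The rise was 0.48 ± 0.16 log2 or 1.40-fold (adjusted p = 0.0228, limma). The other VCAN probe (A_72_P409933) rose by 0.44 ± 0.11 log2 or 1.36-fold (adjusted p = 0.00389), with 16 of 18 HS pigs above the TN mean of their breed. Across the 35 pigs, with the group means removed, these separate probes had a Pearson correlation of 0.91. Within slides the difference ran from -0.05 to 0.98 at the lead probe, positive on 4 of 5 slides, and from 0.15 to 0.74 at the other.

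FCGR1A encodes the high-affinity receptor for immunoglobulin G, and 1 of its 2 probes passed. The lead probe (O9759) had medians of 5.82 and 6.003 in CR TN and HS pigs, 5.95 and 5.94 in F1 pigs and 5.67 and 5.85 in LW pigs. Its difference of HS minus TN was 0.05 ± 0.10 (adjusted p = 0.741, limma). The neighbouring probe (A_72_P302844) had TN medians of 5.44 (CR), 5.40 (F1) and 5.15 (LW) and HS medians of 5.67, 5.76 and 5.52. The fitted difference was 0.35 ± 0.12 log2 (adjusted p = 0.019), with 14 of 18 HS pigs above the TN mean of their breed. This second probe was near background: it was well above it on 22 arrays. In TN these were 4 of 5 CR, 1 of 6 F1 and 2 of 6 LW arrays, and in HS 4 of 6 CR, 6 of 6 F1 and 5 of 6 LW arrays. Most TN values of the F1 and LW pigs were therefore at the limit of the assay, and no fold change is given. With the values of the 2 probes averaged, FCGR1A differed by 0.20 ± 0.10 and did not pass (adjusted p = 0.110).

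The partner of the Fc receptors is FCER1G, the signalling chain that FCGR1A and other activating receptors share. Its lead probe (A_72_P077471) had group means between 13.09 ± 0.50 (LW TN) and 13.51 ± 0.63 (CR HS). The difference of HS minus TN was 0.04 ± 0.15 (adjusted p = 0.853, limma), and its twin with the same 60 bases gave -0.04 ± 0.14 (adjusted p = 0.848). The values of the twins differed by a constant 0.47 ± 0.08 (SD, n = 35) and correlated at 0.99. The spread of FCER1G between pigs was thus larger than the error between spots of the same array. Each pig had 1 array, so error between arrays cannot be told apart from differences between pigs.

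MRC1 encodes the macrophage mannose receptor, which takes up glycoproteins. At its lead probe (A_72_P442529) the CR TN pigs had values of 7.94, 9.27, 8.17, 8.67 and 8.01, and CR HS pigs ran from 6.79 over a median of 7.59 to 8.69. In F1 pigs the values ran from 8.44 over 9.03 to 9.29 in TN and from 6.54 over 7.66 to 8.47 in HS, so the F1 groups overlapped at their edges. In LW pigs they ran from 7.49 over 8.26 to 8.68 in TN and from 7.87 over 7.99 to 8.64 in HS, within the TN range. HS minus TN was -0.78 ± 0.20 log2, a 1.72-fold fall (adjusted p = 0.00395, limma), with 16 of 18 HS pigs below the TN mean of their breed. Within slides the difference ran from -1.03 to -0.30 and was negative on all 5. The call was lost without the F1 pigs (-0.44 ± 0.21, adjusted p = 0.279) and with the red cell mean as a covariate (-0.45 ± 0.20, adjusted p = 0.169), and the difference was -0.33 ± 0.12 when both MRC1 probes were averaged (adjusted p = 0.0366).

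The other MRC1 probe (O1108) did not pass, with a difference of 0.12 ± 0.12 (adjusted p = 0.481, limma). It was well above background on 18 arrays, and its group means lay between 5.33 ± 0.24 (LW TN) and 5.74 ± 0.54 (F1 HS). With the group means removed, the 2 MRC1 probes correlated at 0.22 across the 35 pigs, far below the pairs of CD14 (0.90 to 0.99), LYZ (0.98 to 0.99) or VCAN (0.91). The fall was measured at 1 of the 2 probes and not at the other, which lay near background. At O1108 the difference was 0.05 ± 0.23 in CR, 0.24 ± 0.22 in F1 and 0.05 ± 0.22 in LW pigs. Whether a fall could be seen at such low values was not tested. The array annotation names the lead probe MRC1 but describes its target as an uncharacterised protein, and that of O1108 as the mannose receptor. Whether the lead probe reads MRC1 mRNA could not be checked, so the fall is that of a probe and not certainly of the gene.

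**Figure D2:**
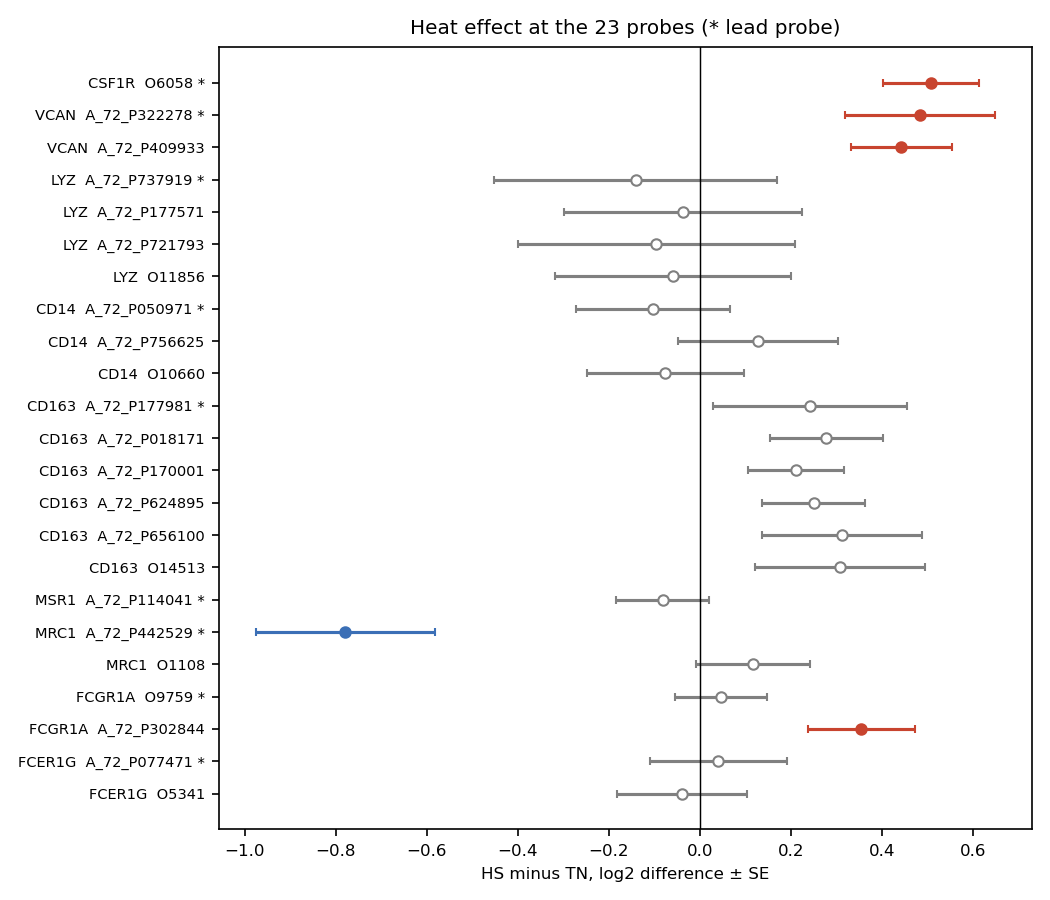
Difference of HS minus TN in log2 units ± SE (x axis) at each of the 23 probes of the 9 genes (y axis, lead probe of a gene marked with a star). Filled points passed an adjusted p of 0.05 by limma, red for higher and blue for lower in HS, and open grey points did not. Both VCAN probes lie to the right of 0, while 1 of the 2 points is filled for FCGR1A and 1 for MRC1.

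CD163 encodes the scavenger receptor for haptoglobin and haemoglobin complexes. All 6 of its probes had positive differences of HS minus TN, from 0.21 ± 0.11 (A_72_P170001) to 0.31 ± 0.18 (A_72_P656100), and none of the 6 passed the threshold (adjusted p from 0.0796 to 0.383, limma). The lead probe (A_72_P177981) had TN medians of 8.51 (CR), 8.35 (F1) and 8.36 (LW) and HS medians of 8.86 (CR), 8.64 (F1) and 8.71 (LW), and its groups overlapped in every breed. Its difference was 0.24 ± 0.21, with 11 of 18 HS pigs above the TN mean of their breed. The largest share was 15 of 18 pigs, at A_72_P018171 (0.28 ± 0.12, adjusted p = 0.0796). This probe and its twin passed the threshold when arrays were weighted by quality and with slide as a block, in the latter case at 0.29 ± 0.11 (adjusted p = 0.0418) and 0.26 ± 0.10 (adjusted p = 0.0458). Under these settings 43.8% and 36.9% of all probes passed.

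CD14, the coreceptor for bacterial lipopolysaccharide, stayed below the threshold at all 3 probes. Its lead probe (A_72_P050971) differed by -0.10 ± 0.17 between HS and TN (adjusted p = 0.657), and the other probes by -0.08 ± 0.17 (O10660) and 0.13 ± 0.18 (A_72_P756625). Of the 18 HS pigs, 8 were above the TN mean of their breed at the lead probe. The difference of CSF1R minus CD14 was higher in HS than in TN pigs by 0.61 log2, averaged over breeds, with 16 of 18 HS pigs above the TN mean of their breed. That of VCAN minus CD14 was higher by 0.58 log2, with 15 of 18 pigs above it. These pairs were chosen after their values were seen, so no test is given.

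LYZ encodes lysozyme, which breaks bacterial cell walls. Its 4 probes had differences of HS minus TN from -0.14 ± 0.31 (lead probe A_72_P737919, adjusted p = 0.743) to -0.04 ± 0.26 (A_72_P177571, adjusted p = 0.923). LYZ varied widely between pigs of a group, with SDs of the lead probe from 0.79 (F1 HS) to 1.19 (CR TN) and values from 8.21 to 11.91 over all pigs. Since its probes correlated at 0.98 or more with each other, the spread was shared by all 4 probes. The lead probe and A_72_P721793 had a run of 45 bases in common, so these probes are not fully separate measurements.

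MSR1, a scavenger receptor for modified lipoproteins, differed by -0.08 ± 0.10 between HS and TN (adjusted p = 0.549, limma). Its group means ran from 5.22 ± 0.12 (LW HS) to 5.58 ± 0.33 (CR TN), and the probe was well above background on at most 4 arrays of any group. In LW HS pigs it was above it on 2 arrays and in F1 TN pigs on 1.

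The design also asked whether the effect of HS depended on breed. In F1 pigs 2 of the 23 member probes passed the threshold, against 38.7% of all probes, namely CSF1R (0.53 ± 0.18 log2, adjusted p = 0.0236) and MRC1 at A_72_P442529 (-1.43 ± 0.30 log2, a 2.69-fold fall, adjusted p = 0.000812, limma). In CR and LW pigs 0 member probes and 0% of all probes passed by limma, with 4 and 3 member probes at an unadjusted p under 0.05. Of all 39072 probes, 3466 in CR and 3404 in LW pigs had such an unadjusted p. CSF1R differed by 0.60 ± 0.19 log2 in CR and by 0.40 ± 0.18 in LW pigs, and the lead VCAN probe by 0.52 ± 0.30 in CR, 0.27 ± 0.28 in F1 and 0.67 ± 0.28 in LW pigs. The interaction of breed and climate was passed by 0 member probes and 0% of all probes. An unadjusted p under 0.05 was found at 5807 of all 39072 probes and at 1 member probe, the lead probe of MRC1 (adjusted p = 0.279). At that probe the effect in F1 pigs was lower than that in LW pigs by -1.30 ± 0.43 log2 (adjusted p = 0.122). With arrays weighted by their quality this difference was -1.24 ± 0.37 and passed (adjusted p = 0.0392), in a fit where 9.99% of all probes passed for this difference. None of the other 22 probes gave a difference between breeds in the effect of HS under either fit.

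**Figure D3:**
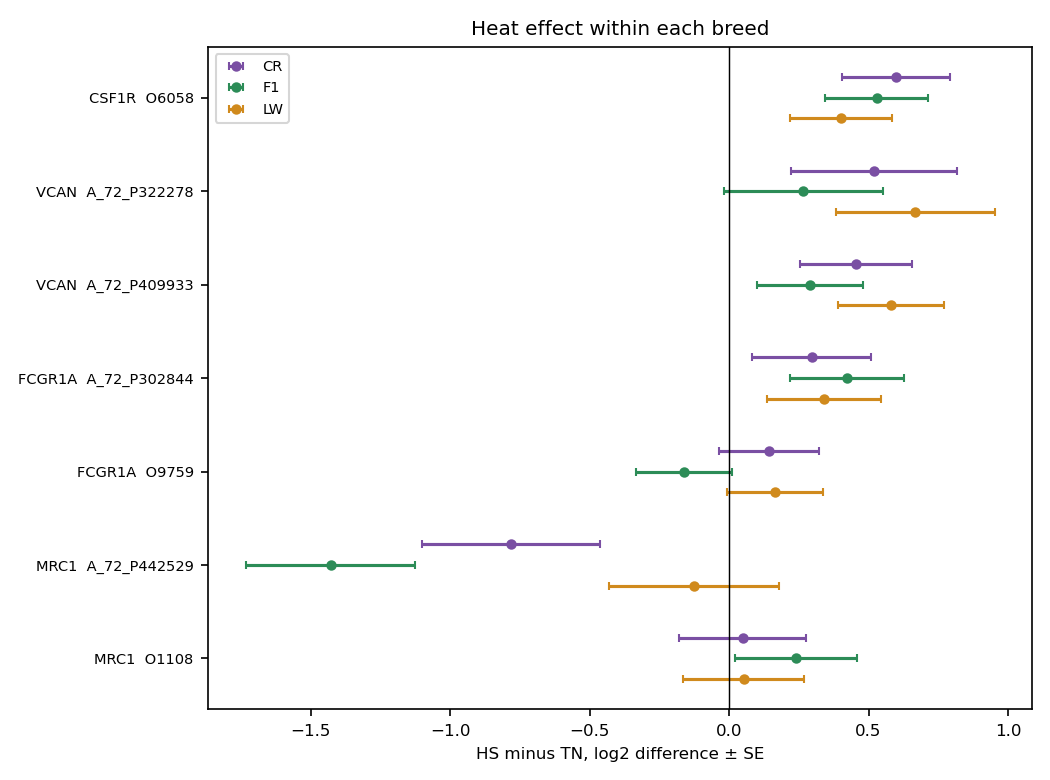
Difference of HS minus TN in log2 units ± SE (x axis) within CR (purple), F1 (green) and LW pigs (orange) at 7 probes of CSF1R, VCAN, FCGR1A and MRC1 (y axis). CSF1R lies between 0.40 and 0.60 in the 3 breeds, whereas the lead MRC1 probe runs from -1.43 in F1 to -0.13 in LW pigs.

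The calls were then examined without the F1 pigs, the breed with the dimmest arrays in TN. Without them 0 of the 23 probes passed the threshold by limma (5 before adjustment), as did 0 of all 39072, although the differences at CSF1R (0.50 ± 0.13, adjusted p = 0.183) and at the lead VCAN probe (0.60 ± 0.16, adjusted p = 0.185) were as large as before. With the mean of the red cell list as a covariate 0 member probes passed by limma (11 before adjustment), and 6 of all probes did. CSF1R then differed by 0.43 ± 0.12 (adjusted p = 0.0764) over all breeds and by 0.40 ± 0.21 in F1 pigs (adjusted p = 0.203), and the lead VCAN probe by 0.52 ± 0.19 (adjusted p = 0.113). Within F1 pigs 3 of the 23 member probes passed with this covariate, as did 10.7% of all probes. The lead MRC1 probe fell by 0.97 ± 0.32 log2 (adjusted p = 0.0458). The other MRC1 probe, O1108, and the MSR1 probe, A_72_P114041, passed as higher in HS (adjusted p = 0.0141 and 0.0384), but they were above background on 3 and 1 of the 6 F1 TN arrays. Without the covariate their differences in F1 pigs were 0.24 ± 0.22 and 0.02 ± 0.18. With the group means removed, the red cell mean correlated across the 35 pigs with MSR1 (Pearson r = 0.76, permutation p = 3e-05, adjusted p = 0.00027 over 9 genes, Spearman rho = 0.78 with permutation p = 2e-05, r = 0.78 without the 2 pigs farthest from the median). Its correlations with MRC1 (0.45), CD14 (-0.41) and CSF1R (-0.22) did not pass the threshold after adjustment. The part of red cell RNA in the differences was not tested beyond these values.

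Other cell types were followed with lists of their markers. For comparison, 20.1% of all probes were higher and 14.7% lower in HS. Of 14 neutrophil probes 1 was lower and 0 were higher in HS, with group means of the list between 9.53 ± 1.12 (F1 HS) and 10.01 ± 1.104 (CR TN). Of 23 T cell probes 8 were higher and 0 lower, and of 8 B cell probes 5 were higher and 0 lower. Of 31 red cell probes 15 were lower and 1 higher. Of 9 platelet probes 0 passed by limma (0 at an unadjusted p under 0.05), of 9 cytotoxic cell probes 2 were lower, and of 3 dendritic cell probes 1 was higher and 1 lower. The part of these cell types in the results was not tested.

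A wider list of 35 genes of monocytes and macrophages had 23 genes and 68 probes in the table. Of the 68 probes 7 were higher and 8 lower in HS, with a median log2 difference of 0.00. Over all probes 20.1% were higher and 14.7% lower, so calls in both directions were not particular to the list. Among the lead probes CD83, a surface protein of activated antigen-presenting cells, rose by 0.26 ± 0.08 log2 (adjusted p = 0.0163, limma) and SYK, the kinase downstream of FCER1G, by 0.35 ± 0.12 (adjusted p = 0.0264). Lead probes of 6 genes fell. The largest fall was that of CEBPA, a transcription factor of myeloid development (-0.88 ± 0.20, adjusted p = 0.00222), followed by MYD88, the adaptor of Toll-like receptors (-0.66 ± 0.13 at its lead probe, adjusted p = 0.00159). The other 2 MYD88 probes had positive differences, both 0.24 log2, and did not pass (adjusted p = 0.185 and 0.07). KLF4, a transcription factor of monocytes, fell by 0.63 ± 0.16 log2 at its lead probe (adjusted p = 0.00349), whereas 3 other KLF4 probes rose, by 0.25 to 0.31 log2. CSF2RB, the common chain of the GM-CSF receptor, fell by 0.58 ± 0.16 log2 (adjusted p = 0.00545), and LBP (-0.21 ± 0.08) and STAB1 (-0.25 ± 0.08) were lower as well (adjusted p = 0.0396 and 0.0158), the latter at a probe above background on 20 arrays. TLR4 (-0.16 ± 0.18), CD68 (-0.10 ± 0.07), SPI1 (0.06 ± 0.12) and CCR2 (0.22 ± 0.15) did not pass.

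Breed was compared with climate taken into account. No member probe passed the threshold between CR and LW pigs, where 1.08% of all probes did by limma. An unadjusted p under 0.05 was found at 3950 of all 39072 probes and at 3 of the 23 member probes. The 3 member probes were those of CD14, which are not independent and all had higher values in CR than in LW pigs. At the lead probe the CR pigs ran from 10.45 over a median of 11.16 to 12.05 (n = 11), the F1 pigs from 10.06 over 10.86 to 11.35 (n = 12) and the LW pigs from 9.57 over 10.65 to 11.46 (n = 12). The breeds overlapped widely, and 9 of 11 CR pigs were above the LW mean. The order of the 6 groups by mean was CR HS (11.22 ± 0.53), CR TN (11.10 ± 0.76), F1 TN (10.86 ± 0.48), F1 HS (10.65 ± 0.29), LW TN (10.64 ± 0.65) and LW HS (10.44 ± 0.43), and no neighbours in it differed by more than their SD.

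CR minus LW at CD14 was 0.63 ± 0.21 log2, or 1.55-fold, at the lead probe (adjusted p = 0.175), 0.64 ± 0.21 at O10660 (adjusted p = 0.175) and 0.66 ± 0.22 at A_72_P756625 (adjusted p = 0.163). Within slides the difference at the lead probe ran from 0.33 to 1.11 and was positive on all 5. When each array was weighted by its quality, 2 CD14 probes passed the threshold, the lead probe at 0.63 ± 0.19 (adjusted p = 0.0495) and A_72_P756625 at 0.66 ± 0.19 (adjusted p = 0.0393), while the share of all probes that passed was 3.9%. Under the 10 other settings the lead probe did not pass, with an adjusted p of up to 0.245.

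Of the other genes, CD163 differed by 0.44 ± 0.26 between CR and LW pigs at its lead probe (adjusted p = 0.639, limma), FCER1G by 0.34 ± 0.19 (adjusted p = 0.576) and CSF1R by 0.26 ± 0.13 (adjusted p = 0.501). LYZ differed by 0.21 ± 0.38, MSR1 by 0.22 ± 0.13 and FCGR1A by 0.18 ± 0.12, while MRC1 (-0.12 ± 0.24) and VCAN (-0.05 ± 0.20) had negative values. In all, 20 of the 23 probes were higher in CR pigs (87.0%), against 46.9% of all probes. Probes of a gene are not independent, and 1 set of pigs gave all values. Lists of markers of other cell types had the following values in the same comparison. The median difference of CR minus LW was 0.97 over 9 platelet and 0.20 over 14 neutrophil probes. It was 0.24 over 8 B cell and 0.24 over 3 dendritic cell probes. Over 9 cytotoxic cell, 23 T cell and 31 red cell probes it was -0.35, -0.23 and -0.15. With 1 lead probe per gene the median was 0.22 over 4 platelet and 0.20 over 9 neutrophil genes. For 5 B cell genes it was 0.17 and for 2 dendritic cell genes 0.07. For 6 cytotoxic cell, 8 T cell and 14 red cell genes it was -0.23, -0.26 and -0.12. Of the probes of these lists, 3 of CA1, a carbonic anhydrase of red cells, and 1 T cell probe passed as lower in CR pigs and 1 B cell probe as higher. The part of these cell types in the differences between breeds was not tested. Of the 68 probes of the wider monocyte and macrophage list 0 passed between CR and LW pigs by limma. An unadjusted p under 0.05 was found at 20 of them and at 3950 of all 39072 probes. The median difference over the 68 probes was 0.14, but with 1 lead probe for each of the 23 genes it was -0.01. Genes with many probes weigh more in the counts and median over probes. At KLF4, for example, the lead probe had a difference of -0.14 ± 0.19.

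F1 pigs had 0 member probes past the threshold against CR pigs, where 0.184% of all probes passed, and 0 against LW pigs, where 0.0256% did (limma, with 2 and 1 member probes at an unadjusted p under 0.05). Of all 39072 probes, 1933 and 1751 had such an unadjusted p. For CD14 the F1 pigs lay between the parental breeds, at -0.42 ± 0.21 from CR (adjusted p = 0.941) and 0.21 ± 0.20 from LW pigs. The 3 breed contrasts share their pigs and are not separate evidence.

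**Figure D4:**
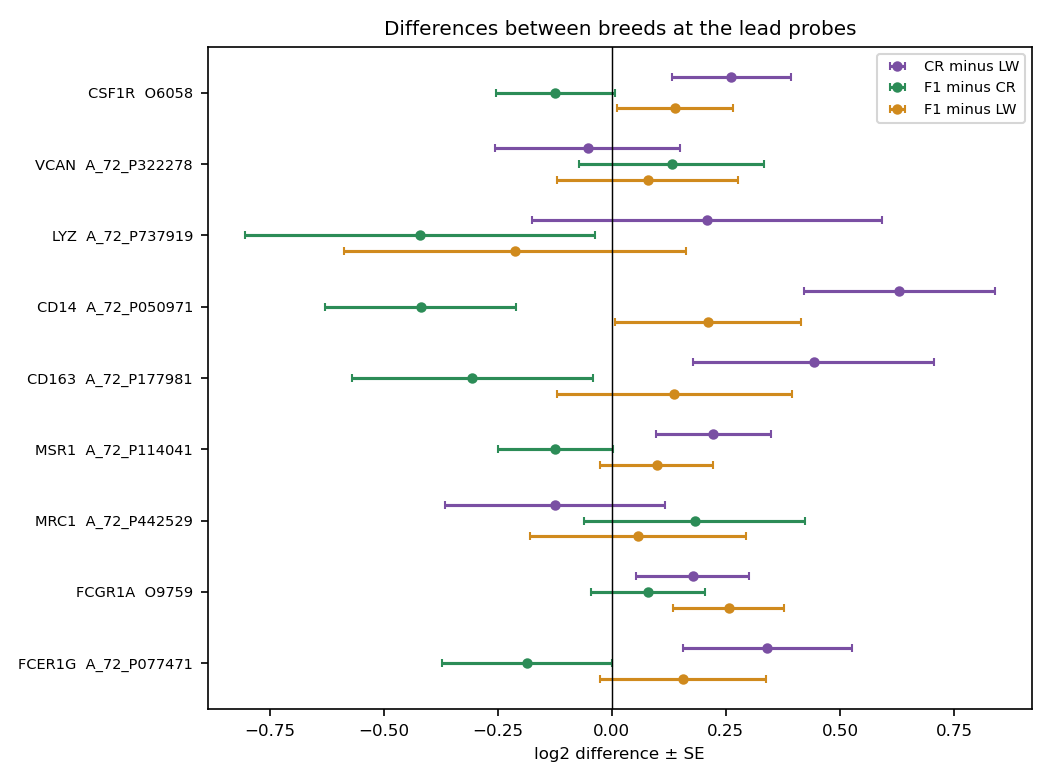
Differences between breeds in log2 units ± SE (x axis) at the lead probe of each gene (y axis), for CR minus LW (purple), F1 minus CR (green) and F1 minus LW (orange). None of the points passed an adjusted p of 0.05 by limma; CD14 has the largest CR minus LW value, 0.63.

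Whether the 9 genes varied together from pig to pig was examined with the mean of each of the 6 groups removed, so that neither breed nor climate could give a correlation. Of the 36 pairs of lead probes 8 passed the threshold by Pearson's r, all positive, and 3 by Spearman's rho (permutation, 100000 draws, 35 pigs, adjusted over the 36 pairs). CD14 correlated with FCER1G (r = 0.57, permutation p = 0.00184, adjusted p = 0.0462, rho = 0.60, permutation p = 0.00095, adjusted p = 0.0342). The correlation was 0.60 without the 2 pigs farthest from the median of CD14 and 0.59 with the slide means removed as well. CD14 also correlated with VCAN (r = 0.44, permutation p = 0.00902, adjusted p = 0.0462, rho = 0.52, permutation p = 0.00348, adjusted p = 0.0418), and LYZ with MSR1 (r = 0.48, permutation p = 0.00791, adjusted p = 0.0462, rho = 0.52, permutation p = 0.00315, adjusted p = 0.0418). Without the 2 farthest pigs these were 0.45 and 0.54, and with the slide means removed 0.53 and 0.49.

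The other 5 pairs passed by r alone: CD163 with LYZ (0.51) and FCGR1A (0.47), CSF1R with FCGR1A (0.47) and VCAN (0.45), and FCGR1A with VCAN (0.46). Without the 2 farthest pigs the last of these was 0.30 and the other 4 were 0.36 to 0.41. CD14 and LYZ, both common markers of monocytes, had an r of 0.01. The 9 genes thus did not vary as 1 block between pigs. CD14 and FCER1G had negative values with MSR1 (r = -0.41 and -0.45, neither past the threshold), while LYZ had a positive one. The MSR1 probe was well above background on 17 of the 35 arrays and correlated with the red cell mean at 0.76. Its pairs, also that with LYZ, therefore rest in part on values near background.

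**Figure D5:**
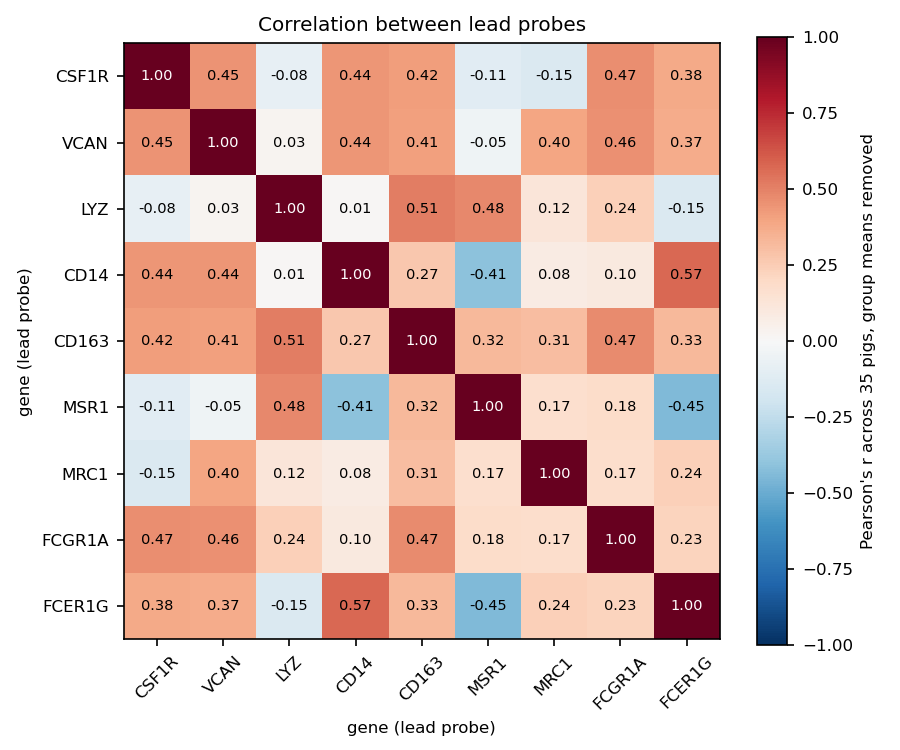
Pearson's r (colour and printed number) between the lead probes of each pair of the 9 genes (both axes) across 35 pigs after the mean of each group was removed. CD14 and FCER1G reach 0.57, the highest value of a pair, and CD14 and LYZ 0.01.

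For each lead probe the 3 genes with the most similar pattern across the 35 pigs were taken, by r with the group means removed, among 16514 probes with a gene symbol known in the reference tables. CSF1R was most like CTSZ (0.86), CYBRD1 (0.85) and ANXA11 (0.81). CD14 was most like SMAP2 and TGFA (both 0.76), and FCER1G like GATAD2A (0.83), TOM1 (0.82) and CAMK1 (0.81). Both CD163 (0.78) and VCAN (0.79) had SLC11A1, a metal transporter of phagosomes, in first place, at separate SLC11A1 probes. LYZ was most like DEK (0.84), CD164 (0.83) and CCPG1 (0.82), MSR1 like CXCL12 (0.87), NUCB2 (0.86) and CD5L (0.86), and FCGR1A like DKK1, CHPF2 and FUT1 (all 0.73).

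The lead MRC1 probe stood out in this comparison, since it correlated at 0.98 with OC90, BMPR1B and ENPP1 and at 0.22 with the other MRC1 probe. These 3 probes also fell with HS, by 0.73 (OC90, adjusted p = 0.00442), 0.92 (BMPR1B, adjusted p = 0.00235) and 0.59 log2 (ENPP1, adjusted p = 0.00651, limma). The likeness is a description of the probes and says nothing about shared function.

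How well a probe repeats itself could be read from probes with the same 60 bases. The CD163 twins differed by 0.05 ± 0.14 (SD, n = 35) with an r of 0.94, and 3 further probes of the array carried the bases of a CD14, a LYZ and a CD163 probe under names without a gene symbol, with an r of 0.994, 0.998 and 0.982 to the member. Their differences of HS minus TN were -0.14 ± 0.15, -0.12 ± 0.30 and 0.18 ± 0.22, against -0.10 ± 0.17, -0.14 ± 0.31 and 0.24 ± 0.21 at the named CD14, LYZ and CD163 probes. At each of these pairs the differences of HS minus TN lay closer to each other than their SE.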

How the data were processed

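Whole blood RNA of 35 pigs was hybridised to a custom porcine Agilent array, 1 array per pig. Arrays were read with Feature Extraction 10.10.1.1 per the file headers, and the intensity values deposited for each spot (median, background and processed) were not normalized between arrays. The authors deposited a table of log2 values for which they quantile normalized the median intensity and applied a filter on expressed probes, whose rule is not given in the sources used here. These log2 values were used throughout. Values recomputed from the scanner files correlated with them at 0.99997 over 39072 probes and differed by at most 0.13 for the probes described. The files place no probe on a genome, so no coordinates are given.

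Groups came from the sample titles, and pigs were numbered in record order, which pairs no animals. Each probe was fitted in R 4.3.3 with limma 3.58.1 (lmFit, eBayes): HS minus TN and breed contrasts in an additive model of breed and climate, effects within breeds and their interaction in a model of 6 group means. P-values were two-sided and adjusted by Benjamini-Hochberg over all 39072 probes, with a threshold of 0.05. The fit was also run on simulated data with independent noise. That run cannot show how the p-values behave when pigs share a pen, litter or day of slaughter, or when probes vary together. Pen, day of slaughter and parents, which the study modelled as random effects, have no labels and were not fitted. The labels do not say how pigs are related, so p-values treat them as independent. The methods of the study describe litters and shared pens, so these p-values may be too small. With those terms fitted, the study reported far fewer blood probes at the same threshold than the 13601 called here for HS minus TN. Permutation tests were two-sided and ran in Python 3.11.15 with numpy 2.4.6. The genes named were all probes of the 9 genes, 1 lead probe per gene by detection, partner genes past the threshold at their lead probe, and the 3 most similar genes per lead probe, with unnamed (LOC) loci left out and 1 gene not reported here. TLR4, CD68, SPI1, CCR2 and the other KLF4 and MYD88 probes were named after their values were seen. The 9 genes and all lists were chosen with earlier results of these data known. The precision is limited by the number of arrays.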

Additional observations from a re-analysis of the deposited data

Results flagged for a closer look

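In 5 of the 54 combinations of lead probe and group, 1 pig lay far from the others of its group by Dixon's test, and chance alone gives about 5% of such combinations. CSF1R was 7.53 in F1 HS replicate 4 against 6.70 to 6.99 in the others. FCER1G was 12.43 in LW HS replicate 5 against 13.16 to 13.45. FCGR1A was 7.04 in F1 TN replicate 3 at its lead probe against 5.74 to 6.06. MRC1 was 8.64 in LW HS replicate 1 against 7.87 to 8.00. VCAN was 8.69 in LW TN replicate 6 against 7.67 to 7.92. The 5 values came from 5 pigs. Without F1 HS replicate 4, CSF1R differed by 0.41 ± 0.18 between HS and TN in F1 pigs and no longer passed the threshold there (adjusted p = 0.0687, limma).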

How the results depend on the processing

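The count of 5 member probes past the threshold for HS minus TN was 0 with the red cell mean as a covariate, 0 without F1 pigs and 3 of 9 genes when the probes of a gene were averaged (CSF1R, VCAN and MRC1), where FCGR1A no longer passed and 35.8% of all 28066 genes did. The causes were not tested. The settings that kept the count within 1.5 times gave up to 7. CR minus LW had 2 member probes with array weights and HS minus TN in LW pigs 1 with array weights, each 0 under the other settings. With these weights 3.9% and 2.84% of all probes passed in the same comparisons. Leaving out 1 pig at a time gave 5 to 7 member probes for HS minus TN and 1 to 2 within F1 pigs, where CSF1R was lost without F1 HS replicate 4, F1 TN replicate 1 or F1 TN replicate 4. All 5 probes called for HS minus TN passed in each of these 35 fits. Directions turned for values not past the threshold: HS minus TN at FCER1G (-0.14), LYZ (0.15) and MSR1 (0.14) with the red cell covariate, CR minus LW at MRC1 with that covariate (0.017) and with averaged probes (0.027), and, with 1 pig left out, HS minus TN at FCER1G (-0.014 to 0.094) and CR minus LW at VCAN (-0.11 to 0.013). No paired analysis was possible because the labels carry no replicate numbers.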
